A study of Mus musculus with 16 samples.

Results

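The genes described here encode the proteins of the cytosolic ribosome. They were taken by name: genes of the array called Rpl or Rps with a number, plus Rplp0, Rplp1 and Rplp2, with the S6 kinase genes left out. The rule found 78 of the 29273 gene names on the array. All 78 were among the 27841 gene names that passed the filter on dim signals, and 76 of them were well above background in both channels on all 16 arrays. They comprise 44 proteins of the large subunit, 31 of the small subunit and the 3 proteins of the stalk. The array carried 129 probes for these genes, and 38 genes had more than 1 probe, so the brightest probe stands for its gene. RefSeq knew the accession of 73 of the 78 representing probes, and for 72 it gave the symbol that the array gives.

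The samples were cells sorted by green fluorescence from newborn mice of the GAD67-eGFP line on a C57Bl/6 background, at postnatal day 1. In this line eGFP marks cells that use the Gad1 locus, whose enzyme GAD67 makes the inhibitory transmitter GABA. Whole brain was the source of the sorted cells on 4 arrays. Olfactory bulb was the source on 3 arrays, as were cortex, striatum and also cerebellum. Each array set amplified cDNA of sorted cells (Cy5) against amplified cDNA of a total brain reference (Cy3), made from unsorted whole brain of mice of the same age. Values below are log2 ratios of sorted cells over that reference, and positive values stand for more signal from the sorted cells. The labels call the replicates biological and give 4 mice for the whole-brain sorts and 6 for the regional sorts, without saying which animals a sample came from. The dyes were never swapped, so a dye effect of a gene is part of its ratio to the reference and cancels only between groups. In such cell pools, fewer cells with a transcript and less of it per cell cannot be told apart.

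A ribosome is built from a small subunit, which reads the mRNA, and a large subunit, which joins amino acids. Cells make the ribosomal proteins in matched amounts, and their mRNAs typically start with a tract of pyrimidines through which mTOR signalling sets their translation. Young neurons that extend axons and dendrites need many ribosomes. The genes also have many near-identical processed copies in the mouse genome, whose part in any probe's signal was not tested.

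The arrays labelled whole brain stood apart from the others. They were scanned in a batch of their own, and the 12 regional arrays formed the other batch, so batch and group cannot be told apart wherever whole brain is set against the regions. Across all genes tested, the correlation was 0.936 to 0.992 within a group, 0.618 to 0.748 between whole-brain and regional arrays, and 0.776 to 0.926 between 2 regions. Gad1, the gene behind the reporter, was lower than in the reference on all 4 whole-brain arrays, at -1.61, -1.47, -1.39 and -1.56, and its other probe gave -1.30, -1.36, -1.26 and -1.36. In the regions Gad1 was higher on every array, between 0.58 and 1.26 by its brightest probe. The other 6 of 7 markers of GABAergic neurons were called higher in whole brain, among them the homeobox gene Dlx6 at 2.66 ± 0.07 (SE). All 7 were called higher in olfactory bulb, cortex and striatum, and 6 in cerebellum. Of 6 markers of postmitotic neurons, 6 were called lower in whole brain and in cerebellum, and 5 in olfactory bulb, cortex and striatum. Over all tested genes, 36.1% to 44.9% were called higher than the reference in the 5 groups, and 31.2% to 34.7% lower. All results on whole brain rest on these 4 arrays. The counts of each region against the other regions are also given from the 12 regional arrays alone.

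In the 4 regions most ribosomal protein genes were lower in sorted GABAergic cells than in the total brain reference. In olfactory bulb 64 of the 78 genes were called lower (adjusted p under 0.05) and 8 higher, beside 31.2% of all tested genes called lower and 36.7% higher. Cortex had 61 lower and 7 higher, beside 31.5% and 37.9% of all genes. Striatum had 49 lower and 7 higher, beside 31.4% and 36.1%, and cerebellum had 59 lower and 6 higher, beside 33.2% and 42.7%. The median ratio of the 78 genes was lowest in cortex at -0.74, with -0.66 in cerebellum, -0.58 in olfactory bulb and -0.38 in striatum. Over all genes the medians lay between 0.03 and 0.08. These 4 comparisons share the reference and are not independent of each other. Without the first cerebellum array, 3 genes in place of 6 were called higher there. With each array centred on its median in place of loess, striatum had 35 lower and 14 higher, and the striatal median moved to -0.11.

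The whole-brain arrays gave another picture. There 37 of the 78 genes were called lower than the reference and 32 higher, beside 34.7% and 44.9% of all genes, with a median of -0.03. The genes went far apart in both directions: 18 were at least 2-fold higher and 22 at least 2-fold lower, beside 8.56% and 13.7% of all genes. In the regions none was at least 2-fold higher. Olfactory bulb had 16 at least 2-fold lower, cortex 19, striatum 4 and cerebellum 20. Of all genes 6.34% were at least 2-fold higher and 8.03% lower in olfactory bulb, with 6% and 7.8% for cortex, 3.56% and 5.83% for striatum, and 8.28% and 8.26% for cerebellum. The standard deviation across the 78 genes was 1.24 to 1.44 on the 4 whole-brain arrays, and 0.42 to 0.58 on the 12 regional arrays. Over all genes it was 0.87 to 0.95 on the whole-brain arrays and 0.60 to 0.80 on the regional ones. With median centring, 39 genes were higher and 28 lower in whole brain and the median was 0.21. The median was also above 0 with the mean of probes (0.11) and the brightest unsaturated probe (0.02), so its sign is not settled.

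**Figure D1:**
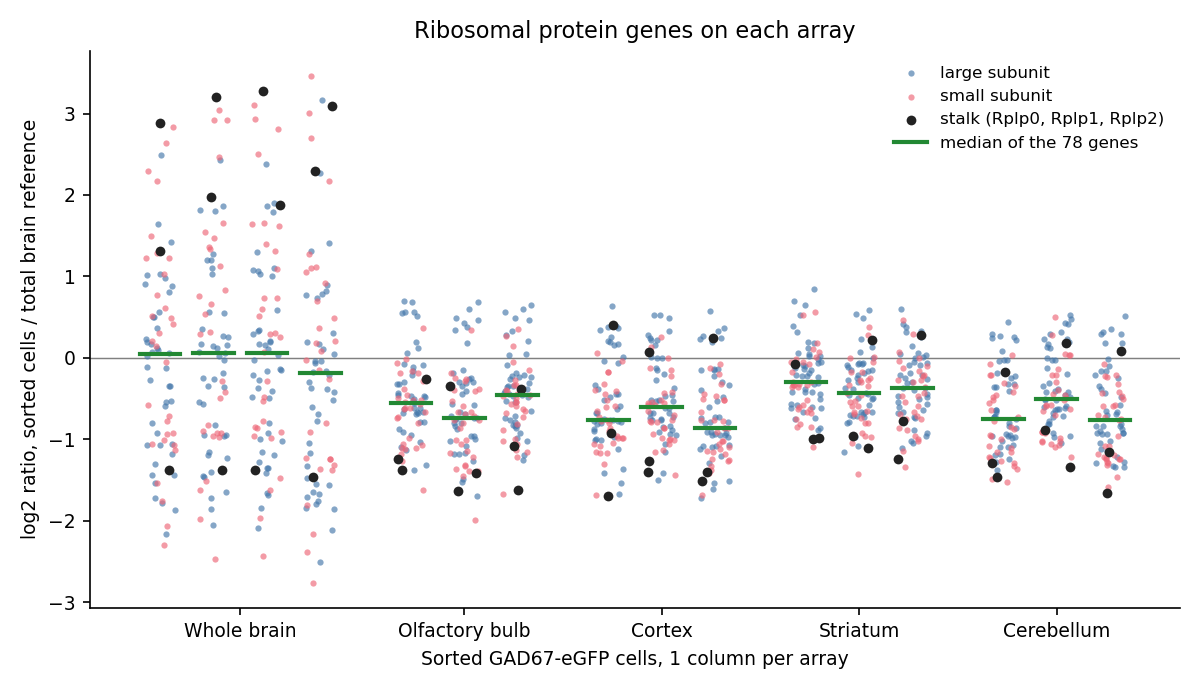
The log2 ratio of sorted cells to the total brain reference for each of the 78 ribosomal protein genes, 1 column of points per array, coloured by subunit, with a green bar at the median. On the whole-brain arrays the points spread from below -2 to above 3, while the regional medians lie between -0.86 and -0.30.

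The stalk of the large subunit shows the contrast in a single structure. Rplp0 anchors the stalk, and Rplp1 and Rplp2 bind to it as dimers that recruit the elongation factors. Rplp2 had ratios of 2.88, 3.20, 3.28 and 3.09 on the whole-brain arrays. In olfactory bulb it had -0.25, -0.35 and -0.38, in cortex 0.40, 0.07 and 0.25, in striatum -0.08, 0.22 and 0.28, and in cerebellum -0.17, 0.18 and 0.09. No regional array came near the whole-brain values, and Rplp2 was 8.65-fold above the reference in whole brain (adjusted p = 3.86e-18). Rplp1 had 1.31, 1.97, 1.87 and 2.29 in whole brain, and every regional array lay between -1.63 and -0.78. It was thus called higher than the reference in whole brain (1.86 ± 0.11, SE) and lower in all 4 regions. Rplp0 was low everywhere, at -1.38, -1.37, -1.38 and -1.46 in whole brain and between -1.69 and -0.99 on the regional arrays. Its whole-brain mean and the mean of the regions differed by -0.05 ± 0.08 (SE), which was not called (adjusted p = 0.554).

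In the small subunit, Rps12, Rps4x and Rps27 were the genes with the highest whole-brain ratios. Rps12 sits in the head of the small subunit, and its whole-brain arrays read 2.84, 3.04, 3.10 and 3.01, while its regional arrays ran from -0.77 to -0.34. Rps4x, which is encoded on the X chromosome, read 2.18, 2.92, 2.81 and 3.46 in whole brain and -1.67 to -0.69 on the regional arrays. Rps27, a zinc-finger protein of the small subunit, had a mean of 2.80 ± 0.06 (SE) in whole brain, or 6.94-fold, and lay between -0.46 and 0.10 on the regional arrays. In the large subunit, Rpl11 read 2.49, 2.43, 2.38 and 3.17 in whole brain and -1.26 to -0.30 in the regions. Rpl11 joins the 5S ribosomal RNA with Rpl5 and can bind the p53 regulator MDM2. Its partner Rpl5 went the other way, at -1.73, -1.65, -1.66 and -1.80 in whole brain and between -0.92 and -0.15 on the regional arrays that measured it.

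The lowest whole-brain ratio belonged to Rps6, the small-subunit protein that S6 kinases phosphorylate downstream of mTOR. It read -2.30, -2.47, -2.43 and -2.76 in whole brain, or 5.63-fold below the reference (adjusted p = 1.32e-16). Olfactory bulb arrays read -0.52, -0.72 and -0.82, those of cortex -1.17, -0.98 and -1.33, those of striatum -0.68, -0.96 and -0.96, and those of cerebellum -1.11, -0.98 and -1.28. By its brighter probe Rps6 was thus low in every group, and the groups of whole brain and regions did not overlap. Rpl7 followed at -2.20 ± 0.10 (SE), Rps9 at -2.10 ± 0.09, Rpl28 at -1.90 ± 0.07 and Rps18 at -1.79 ± 0.08. The Rps18 probe was saturated on 2 arrays, and the brightest unsaturated probe of that gene gave 0.46 in whole brain, so its direction there is not settled.

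Set directly against the mean of the 4 regions, whole brain had 39 ribosomal protein genes called higher and 27 lower, beside 31.1% and 30.6% of all tested genes. For 24 genes the difference was at least 2-fold upward, beside 2.95% of all genes, and for 10 at least 2-fold downward, beside 6.89%. In 32 genes every whole-brain array lay above every regional array, which held for 12.1% of all genes, and in 19 every whole-brain array lay below, which held for 16.6%. The highest differences were those of Rps4x at 3.97 ± 0.15 (SE), Rps12 at 3.56 ± 0.07, Rpl11 at 3.39 ± 0.12, Rplp2 at 3.09 ± 0.09 and Rplp1 at 3.05 ± 0.13. The lowest were Rps6 at -1.53 ± 0.09, Rpl7 at -1.49 ± 0.11, Rpl18 at -1.45 ± 0.10, Rpl17 at -1.40 ± 0.10 and Rpl5 at -1.33 ± 0.08. All 10 had adjusted p-values of 4.46e-10 or less. Among the large-subunit genes 18 were called higher and 19 lower with a median of -0.08, and among the small-subunit genes 19 higher and 8 lower with a median of 0.58. The difference between the subunits was not tested. With median centring whole brain had 48 genes higher and 17 lower than the regions.

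Markers of other cells also differed between whole brain and the regions, a comparison in which 31.1% of all tested genes were called higher and 30.6% lower. Of 6 erythroid markers 5 were called higher in whole brain and none lower, with the globin gene Hbb-b1 at 0.65 ± 0.07 (SE). Microglia had 5 of 7 higher and 1 lower, the oligodendrocyte lineage 4 of 7 higher and 1 lower, and endothelium 1 of 5 higher and none lower. Astrocytes and radial glia had 2 of 8 higher and 4 lower, with the gap junction gene Gja1 at -1.70 ± 0.11. Proliferating cells had 4 of 8 higher and 4 lower, glutamatergic neurons 2 of 6 and 2, and postmitotic neurons none of 6 higher and 4 lower, with Dcx of migrating neurons at -2.54 ± 0.08. The median of the erythroid list lay between 0.01 and 0.27 on the whole-brain arrays and between -0.22 and 0.12 on the regional arrays. That of the microglia list lay between -0.23 and -0.07 in whole brain and between -0.75 and -0.10 in the regions, and that of the astrocyte list between -1.54 and -1.26 in whole brain and -2.003 and -0.94 in the regions. The part of these lists in the ribosomal protein ratios was not tested.

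**Figure D2:**
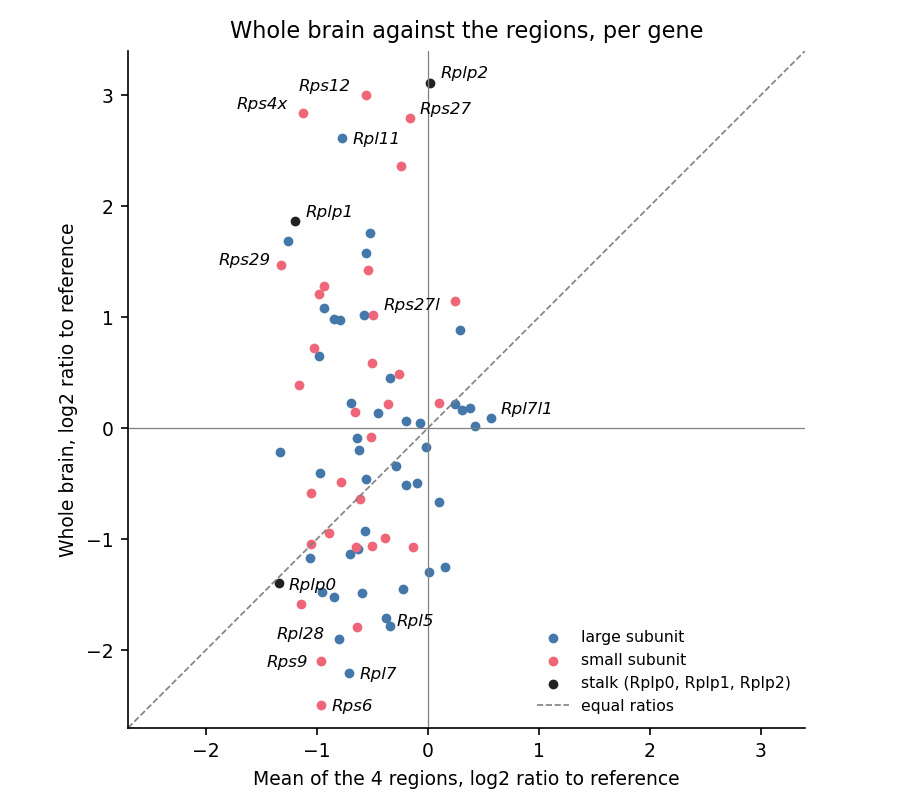
The mean log2 ratio in whole brain (vertical) against the mean of the 4 region means (horizontal), 1 point per ribosomal protein gene, with the line of equal ratios dashed. Whole-brain means run from -2.49 for Rps6 to 3.11 for Rplp2, a wider range than that of the regional means.

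A total of 19 genes were called higher than the reference in whole brain and lower in each of the 4 regions, a pattern that 1.71% of all genes showed. None showed the opposite, which 1.8% of all genes did. Besides Rps4x, Rps12, Rpl11 (by its brighter probe) and Rplp1 they include Rpl39 and Rps29. Rpl39 lines the exit tunnel and read 1.65, 1.82, 1.86 and 1.41 in whole brain, with every regional array between -1.61 and -0.88. Rps29 read 1.497, 1.66, 1.66 and 1.05 in whole brain, with the regional arrays between -1.996 and -0.81. Another 27 genes were called lower than the reference in all 5 groups, beside 17.8% of all genes, with Rplp0, Rps6, Rps9 and Rpl28 among them. The calls against the reference share the reference cDNA, so these counts describe the pattern and are not separate evidence.

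The difference between whole brain and the regions lay mainly in the sorted-cell channel. Taking each channel by itself, after bringing all arrays to the same distribution of average intensity, the standard deviation across the 78 genes of the whole-brain minus regional difference was 1.19 in the sorted channel and 0.27 in the reference channel. Over all genes these values were 0.63 and 0.18. Of the 66 called ribosomal protein genes, 61 had the larger difference in the sorted channel, as had 15347 of the 17190 called among all genes. For Rps4x the sorted channel differed by 3.82 and the reference channel by -0.15. For Rps12 they differed by 2.79 and -0.77, and for Rps6 by -1.04 and 0.49. The reference cDNA is labelled as the same on all arrays. Its channel moved by up to 0.77 for a ribosomal protein gene and by up to 1.24 over all genes.

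**Figure D3:**
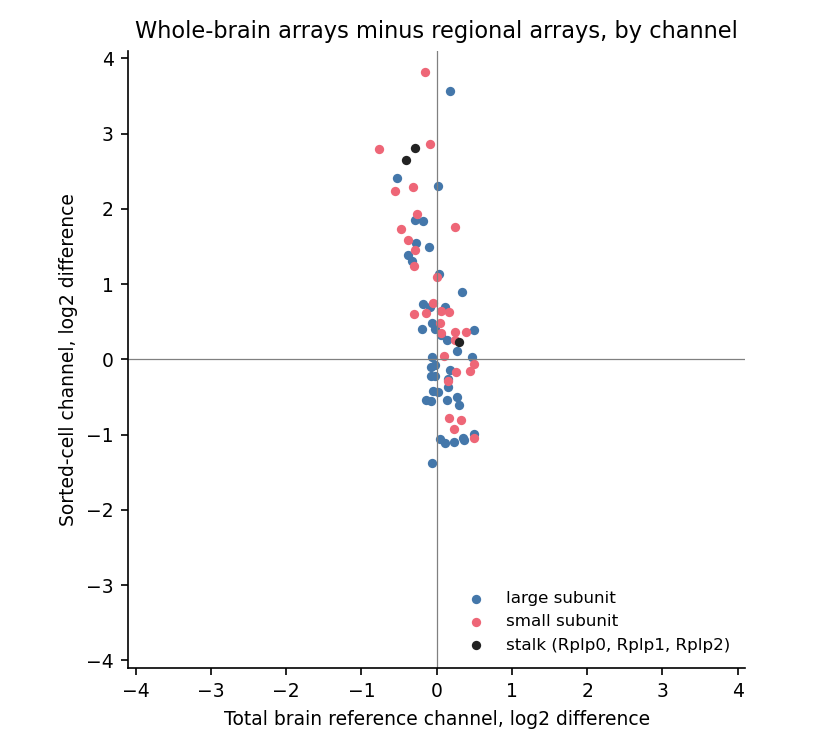
The whole-brain minus regional difference of each ribosomal protein gene in the sorted-cell channel (vertical) and the total brain reference channel (horizontal), both in log2 units on the same scale. Points run from -1.37 to 3.82 vertically and only from -0.77 to 0.50 horizontally.

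Probes of the same gene often did not give the same ratio on the whole-brain arrays. Among the 32 ribosomal protein genes with at least 2 probes well above background on all arrays, the median range between a gene's probes was 1.15 in whole brain. Olfactory bulb had 0.35, cortex 0.40, striatum 0.41 and cerebellum 0.33. Over 5300 genes of the array with such probes it was 0.90 in whole brain and 0.47 to 0.62 in the regions. In whole brain, 12 of the 32 genes had probes with opposite signs that were at least 2-fold apart, against 4 to 7 in the regions. The brighter probe of Rps25 gave -1.07 and the other 2.64. The probes of Rps7 gave -0.94 and 2.16, those of Rpl22 -1.45 and 1.30, and those of Rpl23 -1.13 and 1.13. For Rps21 the representing probe gave -0.08 and the others 2.62 and 2.27. A ratio in whole brain therefore belongs to the probe that represents the gene. Some of the genes named above rest on 1 of several probes as well. The dimmer probe of Rplp2, well above background in both channels on 2 arrays, gave -0.06 in whole brain. That of Rpl11, on 13 arrays, gave 0.06, and that of Rps6, on 15 arrays, gave -0.22. In the regions this dimmer probe averaged 0.24 to 0.74 for Rpl11 and 0.20 to 0.59 for Rps6. The brighter probe of either gene was below 0 in every region, so their regional direction rests on that probe. For Rpl11 the higher ratio in whole brain than in the regions rests on it too. The other probes of Rpl7 gave -1.79 and 0.05. Rps4x, Rps12, Rps27, Rplp1 and Rpl5 have a single probe. With the mean of all probes of a gene, whole brain had 41 genes higher and 22 lower than the regions.

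**Figure D4:**
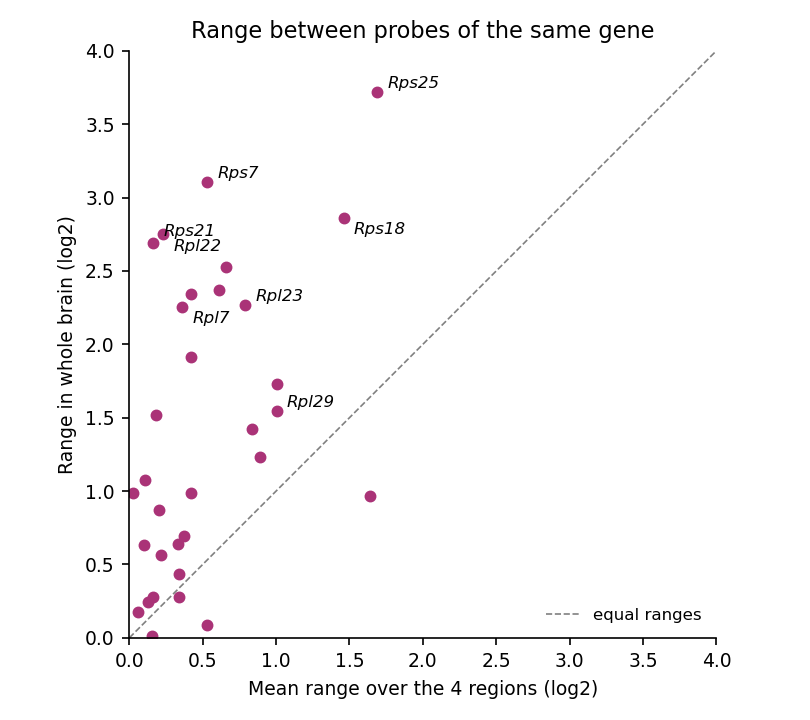
The range of log2 ratios between the probes of a gene in whole brain (vertical) and its mean over the 4 regions (horizontal), for the 32 ribosomal protein genes with several probes well above background on all arrays. Rps25 has the widest range in whole brain at 3.72, and most points lie above the dashed line of equal ranges.

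The windows around the RefSeq start sites of genes at both ends of the whole-brain difference are shown because these mRNAs are known for a pyrimidine tract at their very start. Each runs from 15 bases before the start to 15 from it, so base 16 is the first transcribed base. Sequences are from RefSeq on GRCm38.p6, printed in the direction of transcription, and capitals mark the run of at least 5 pyrimidines nearest the start, where there is one. The first 4 genes had the highest differences and the last 4 the lowest among called genes found in the promoter table.
Rps4x (chrX:102189377-102189406, minus strand): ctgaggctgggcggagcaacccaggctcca
Rps12 (chr10:23787195-23787224, minus strand): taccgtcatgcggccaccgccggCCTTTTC
Rpl11 (chr4:136053379-136053408, minus strand): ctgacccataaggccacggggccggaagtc
Rplp2 (chr7:141447636-141447665, plus strand): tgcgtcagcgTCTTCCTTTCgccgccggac
Rpl9 (chr5:65391417-65391446, minus strand): acgcagggccctgacggattacaagaacgt
Rpl5 (chr5:107900513-107900542, plus strand): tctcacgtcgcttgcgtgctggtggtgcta
Rpl18 (chr7:45718056-45718085, plus strand): tgcgtctcgcaggccgCTCTTTCCCCgccc
Rps6 (chr4:86857353-86857382, minus strand): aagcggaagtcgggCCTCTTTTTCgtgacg
Tracts occur at both ends: Rplp2 and Rps6 hold a run across the start, and Rpl5 and Rpl11 hold none in this window. Of the 58 ribosomal protein genes in the table, 13 (22.4%) had a C as first base followed by at least 4 pyrimidines, against 3.01% of 27025 genes. Among those called higher in whole brain than in the regions 6 of 29 (20.7%) had it, and among those called lower 5 of 20 (25%). CTTTC on the transcribed strand from 10 bases before to 15 from the start was found in 14 of 58 (24.1%), against 3.68% of all genes. TTCCG on either strand anywhere in the promoter window of the table, which can overlap CTTTC, was found in 52 of 58 (89.7%), against 32.7% of all genes, with 93.1% in the higher and 90% in the lower group. By the other search of each motif, CTTTC on either strand in the promoter window was found in 49 of 58 (84.5%), against 60.6% of all genes. TTCCG on the transcribed strand near the start was found in 6 of 58 (10.3%), against 3.35%. A gene was counted where any of its listed starts matched, while each window shown is that of the first listed start. The annotated start need not be the one used in these cells.

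Among the 4 regions, 48 of the 78 genes differed by the moderated F test, beside 57.3% of all tested genes. The median gap between a gene's highest and lowest region was 0.47, against 0.38 for all genes, and no gene differed 2-fold between a region and the other 3. Of the 48, 35 were highest in striatum, 8 in olfactory bulb, 3 in cerebellum and 2 in cortex. Cerebellum was lowest for 19, cortex for 17, olfactory bulb for 11 and striatum for 1. Of all genes that passed this test, 22.8% were highest in striatum, 25% in olfactory bulb, 40% in cerebellum and 12.2% in cortex. Of them, 27.6% were lowest in cerebellum, 14.7% in cortex, 28.7% in olfactory bulb and 29% in striatum.

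Striatal GABAergic cells had the highest ribosomal protein ratios of the regions. Against the mean of the other 3 regions, 36 of the 78 genes were called higher in striatum and 1 lower, beside 13.5% and 16.5% of all genes. The median difference was 0.25, against -0.03 over all genes, and 70 of the 78 differences were positive. Every striatum array lay above all 9 arrays of the other regions for 21 genes, which held for 6.54% of all genes. From the 12 regional arrays alone the counts were 40 higher and 1 lower. Leaving out the first striatum array brought the count of higher genes to 14, and the other arrays left out in turn gave up to 45. With median centring it was 66 and with arrays scaled to the same spread 28, with 1 lower under both. Before scaling, the standard deviation over all genes was 0.60 to 0.62 on the striatum arrays and 0.68 to 0.80 on the other regional arrays.

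Rpl36, a large-subunit protein, had the highest striatal difference: it read 0.06, -0.12 and 0.15 in striatum. It read -0.63, -1.16 and -0.26 in olfactory bulb, -1.001, -0.74 and -1.08 in cortex, and -0.86, -0.51 and -0.58 in cerebellum. The striatum arrays were all above the others, by 0.79 ± 0.15 (SE) or 1.73-fold (adjusted p = 5.91e-04). Rps21 followed at 0.59 ± 0.12, Rps29 at 0.59 ± 0.14, Rps16 at 0.55 ± 0.10 and Rps15 at 0.53 ± 0.11, all in the small subunit. These 5 kept their call whichever array was left out. The gene called lower was Rpl29, which read 0.02, -0.06 and -0.21 in striatum and 0.20 to 0.52 in the other regions, a difference of -0.44 ± 0.09 (SE). That call rests on the brightest of 4 probes. The other 3, well above background on all arrays, averaged -0.51, -0.77 and -0.49 in striatum, inside the range of the other region means of the same probe. With the mean of probes no gene was called lower in striatum. Of the 37 called genes, 30 had the larger difference in the sorted channel, as had 7082 of the 8341 called among all genes. The medians over the 78 genes were 0.15 in the sorted channel and -0.10 in the reference channel, beside -0.01 in either channel over all genes. Part of the striatal difference thus lay in the reference channel, whose cDNA is labelled as the same on all arrays.

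**Figure D5:**
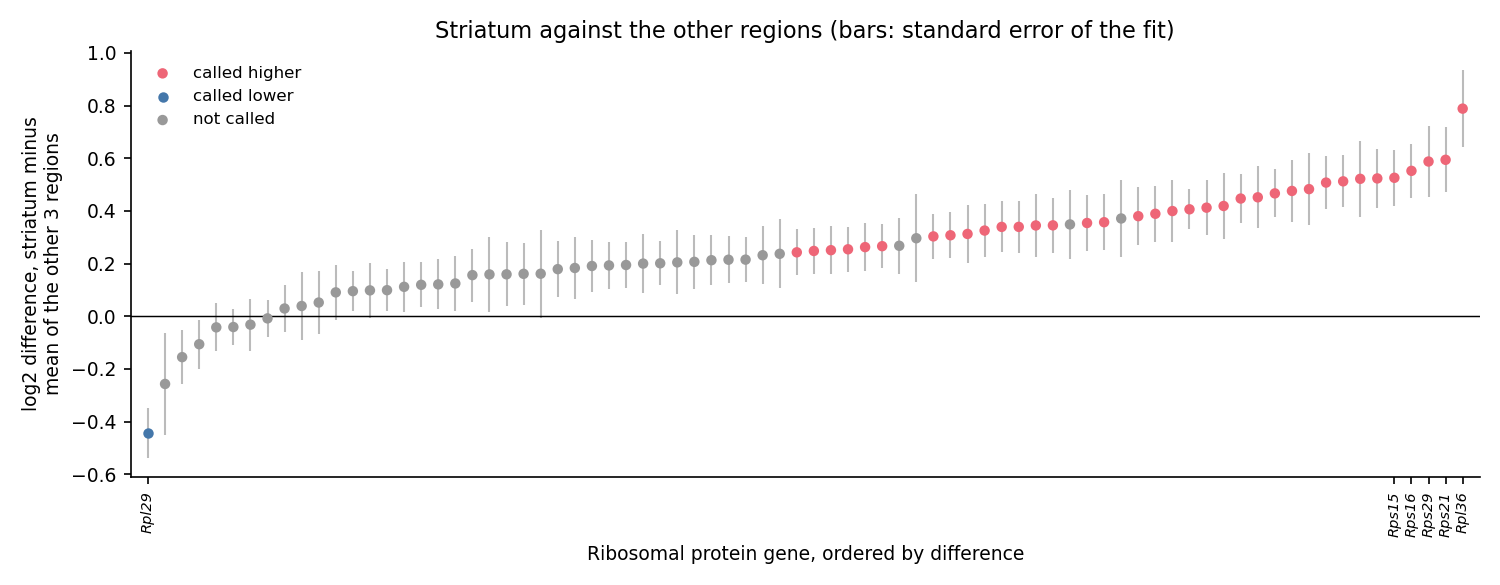
The log2 difference between striatum and the mean of the other 3 regions for each of the 78 ribosomal protein genes in order of size, with the standard error of the fit as bars and calls in colour. All but 8 genes lie above 0, Rpl36 is highest at 0.79 and Rpl29 lowest at -0.44.

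Markers of other cells moved in striatum too, where 13.5% of all tested genes were called higher than in the other regions and 16.5% lower. Of 7 microglia markers 4 were called higher in striatum than in the other regions and 1 lower, and the same counts held for 7 of the oligodendrocyte lineage, 8 of astrocytes and radial glia and 8 of proliferating cells. The highest in these lists were Slc1a3, an astrocytic glutamate transporter, at 0.94 ± 0.08 (SE), Tyrobp of microglia at 0.78 ± 0.07 and Birc5 of dividing cells at 0.74 ± 0.14. The median ratio of the astrocyte list lay between -1.12 and -0.97 on the striatum arrays, between -1.15 and -1.04 in olfactory bulb, -2.003 and -1.86 in cortex, and -1.11 and -0.94 in cerebellum. That of the oligodendrocyte list lay between -1.01 and -0.92 in striatum, -1.86 and -1.59 in olfactory bulb, -1.65 and -1.49 in cortex, and -0.92 and -0.76 in cerebellum. That of the microglia list lay between -0.34 and -0.23 in striatum, and between -0.75 and -0.10 elsewhere in the regions. The median of the proliferation list lay between 0.26 and 0.47 in striatum, -0.25 and -0.08 in olfactory bulb, -0.18 and -0.07 in cortex, and 0.17 and 0.32 in cerebellum. Of 5 endothelial markers 2 were higher in striatum and 1 lower, with Cldn5, a tight junction protein, at 1.38 ± 0.11. Of 6 erythroid markers 1 was higher and none lower, namely the globin gene Hba-a1 at 1.29 ± 0.13. The median of the endothelial list lay between -1.35 and -0.67 in striatum and between -1.33 and -0.69 in the other regions. That of the erythroid list lay between -0.22 and -0.18 in striatum and between -0.19 and 0.12 in the other regions. GABAergic markers had 3 higher in striatum and none lower, among them Dlx2 at 1.18 ± 0.10. The part of these lists in the ribosomal protein ratios was not tested.

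In cerebellum 17 genes were called lower and 4 higher than in the other regions, beside 16.6% and 23.8% of all genes, with a median of -0.11. Rps3a, which read -1.08, -0.65 and -1.23 in cerebellum, was lowest at -0.50 ± 0.12 (SE), followed by Rpl17 at -0.44 ± 0.12 and Rpl5 at -0.43 ± 0.09. Rpl31 was highest there at 0.38 ± 0.07 and read 0.22, 0.17 and 0.18 in cerebellum, above all other regional arrays. The cerebellum count depended on single arrays and on scaling: 6 genes were lower without its first array and 3 without its last. It had 47 lower and 1 higher with median centring, and 8 lower and 10 higher with scaled arrays, so the direction of the family in cerebellum is not settled. From the 12 regional arrays alone it had 17 lower and 6 higher.

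In cortex 8 genes were called lower and 1 higher than in the other regions, beside 6.01% and 4.45% of all genes, with a median of -0.14. The gene called higher was Rpl27a, a large-subunit protein, at 0.46 ± 0.09 (SE), and the lowest was Rpl41, a very short and basic protein, at -0.51 ± 0.14, on a probe saturated on 3 arrays. Without the first or the last cortex array, 0 genes were called lower, and without the second 3. That count of 8 was 1 without the first striatum array, 4 without the last striatum or the first olfactory bulb array, and 14 without the second olfactory bulb array. Median centring left 3 lower and 0 higher, and the 12 regional arrays alone gave 8 and 1.

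In olfactory bulb 8 genes were called higher and 8 lower than in the other regions, beside 13.8% and 15.9% of all genes, with a median of -0.05. Those higher included Rpl7 at 0.54 ± 0.13 (SE) and Rps3a at 0.48 ± 0.12. Rpl7 read -0.32, -0.26 and -0.34 in olfactory bulb and -1.32 to -0.42 in the other regions. Those lower were led by Rpl27a at -0.62 ± 0.09, Rplp1 at -0.47 ± 0.15 and Rplp2 at -0.46 ± 0.10. Rplp2 and Rplp1 were the lowest among the regions there, while Rplp0 was not called (0.14 ± 0.09, adjusted p = 0.261). Without the first olfactory bulb array 4 genes were higher, and without the second 4 were lower. Median centring gave 7 higher and 4 lower, scaled arrays 8 and 14, and the 12 regional arrays alone 8 and 10.

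The array held 3 members that are paralogues with restricted or special roles. Rpl7l1, a homologue of Rpl7 that takes part in assembling the large subunit, read 0.06, 0.02, 0.17 and 0.11 in whole brain and between 0.37 and 0.69 on the regional arrays. It was called higher than the reference in all 4 regions, as were 24.7% of all genes, and no other gene among the 78 was. Its dimmer probe, well above background on all arrays, averaged 0.19 for olfactory bulb, 0.14 for cortex, 0.04 for striatum and -0.21 for cerebellum, so the regional direction rests on the brighter probe. In whole brain it was not called (0.09 ± 0.05, SE, adjusted p = 0.114), and its difference from the regions was -0.48 ± 0.06. Rps27l, a homologue of Rps27 that p53 can induce, read 0.77, 1.13, 1.09 and 1.103 in whole brain and between -0.80 and -0.27 on the regional arrays. Its direction followed that of Rps27 in whole brain, at a smaller size. With median centring its striatal ratio, -0.30 by loess, became 0.04 and was not called. Rpl3l, known from striated muscle, had a dim probe that was well above background in both channels on 8 of 16 arrays. In sorted cells of olfactory bulb and cortex it was not well above background on any array, so no difference is given for it.

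Lists of other genes of translation did not all have the same direction. Of all tested genes, 34.7% were called lower than the reference and 44.9% higher in whole brain, and 31.2% and 36.7% in olfactory bulb. The share called lower was 31.5% in cortex, 31.4% in striatum and 33.2% in cerebellum. Of 9 genes with an Eef name, which include elongation factors and the kinase Eef2k that inhibits one of them, 9 were called lower than the reference in each region. In whole brain 7 were lower and none higher, led by Eef1a2, the form of mature neurons and muscle, at -3.61 ± 0.06 (SE). Of 13 other genes with terminal oligopyrimidine mRNAs, 11 were lower in whole brain and none higher, with Eef2, which moves the ribosome along the mRNA, at -2.41 ± 0.07. These 2 lists share members. Of 74 mitochondrial ribosomal proteins, 43 were lower in whole brain and 21 higher, with Mrps35 at -2.81 ± 0.06 and Mrps22 at 1.64 ± 0.06. This list lay below the reference in the regions too. Its array medians averaged -0.55 for cortex, -0.52 for cerebellum, -0.46 for olfactory bulb and -0.39 for striatum. The 78 cytosolic genes averaged -0.74, -0.67, -0.58 and -0.36 by this measure, in the same order. The difference between these lists was not tested. Against the other regions, 24 of the mitochondrial genes were higher in striatum and 6 lower, beside 13.5% and 16.5% of all genes. Of 47 initiation factors 30 were lower in whole brain and 10 higher, and in olfactory bulb 19 were lower and 19 higher. Of 16 genes of ribosome biogenesis 12 were lower and 3 higher in whole brain, with the nucleolar protein Ncl at -2.43 ± 0.07, while in olfactory bulb 10 were higher and 4 lower. Of 11 regulators of the mTOR and MYC pathways 5 were lower in whole brain and 3 higher. The lowest was Tsc1 at -2.02 ± 0.05 and the highest Tsc2 at 0.38 ± 0.05.

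Core ribosomal proteins whose names lie outside the rule include Fau and Rpl36al. Fau, a fusion to a small-subunit protein, was higher in whole brain than in the regions by 0.81 ± 0.09 (SE), and Rpl36al, another gene for a large-subunit protein, by 0.50 ± 0.07. Both were called higher in striatum than in the other regions, with Fau at 0.62 ± 0.11. The proteasome is another large and abundant complex. Of its 38 genes 27 were lower and 7 higher than the reference in whole brain, beside 34.7% and 44.9% of all genes. Psmb2 was at -3.01 ± 0.07. The array medians of the proteasome list were below the reference in the regions too. They averaged -0.63 for cerebellum, -0.58 for cortex, -0.41 for striatum and -0.35 for olfactory bulb. In striatum 19 proteasome genes were higher than in the other regions and 1 lower, beside 13.5% and 16.5% of all genes. Among those higher was Psmb4 at 0.55 ± 0.10. A higher striatal ratio was thus found in the proteasome list too, and the difference between the lists was not tested.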

How the data were processed

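Per the file headers, each deposited scanner file gives for either channel the mean intensity of a spot and the median intensity of its local background. It also gives a log10 ratio from Agilent Feature Extraction 8.1.1.1, which the submitters' processing notes name. The deposited value table equals that log10 ratio within 0.005 on all 16 arrays; its column medians run from 0 to 0.0334, so it was not centred further, and its scale and direction are those of the scanner ratio. The red channel is Cy5, the sorted cells, though the labels also call Cy3 red.

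From the intensities, limma 3.58.1 under R 4.3.3 corrected background by normexp (offset 50, which pulls the ratios of dim spots towards 0) and normalized each array by loess to log2 ratios. Control spots and spots marked by the scanner had weight 0, and marked spots were left out, which removed 10 values of members. Genes are the array's names, each with its brightest probe. A gene was kept if its signal stood well above background on 3 arrays for the sorted cells or on 8 for the reference. All 16 arrays entered 1 fit with 5 group means (lmFit, eBayes). A call is an adjusted p (Benjamini-Hochberg, over 27841 genes) under 0.05; such a p measures the spread between these arrays only. SE is that of the fit, whose precision the array number limits. The fit was tested on simulated data with independent noise per gene, so without shifts that genes of an array share. For striatum against the other regions it called 5 of 50 genes changed by 0.25 in log2. It called 45 of 50 changed by 0.5 and 50 of 50 changed by 1, with 7 false calls in all. Only 50 of 27841 genes were changed per size. In the data 13.5% and 16.5% of all genes were called higher and lower. The adjusted p is stricter where few genes change, so these rates do not carry over to the data.

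Members and lists were chosen with earlier results of these data known. Named members are the stalk genes, the restricted paralogues and, per comparison, the 5 highest and 5 lowest called; other members were chosen after their values were seen. From other lists the highest and lowest called genes were taken. Values of some genes are not reported here, though counts include them. Alternatives were another normalization, scaling between arrays, the scanner ratio, other probe rules and filters, replicate blocks and leaving out arrays. Replicate numbers were not taken as pairs. Figures were drawn with matplotlib.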

Additional observations from a re-analysis of the deposited data

Results flagged for a closer look

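On the 4 whole-brain arrays, 7 of the 73 ribosomal protein genes measured on all 4 had 1 array far from the others. Chance flags about 1 in 20 such groups. The genes share the arrays, so their flags are not independent and the count cannot be set against that rate. On array 4 Rpl11 read 3.17 (the others 2.38 to 2.49), Rpl37 -0.68 (-0.13 to -0.03), Rpl38 0.82 (1.00 to 1.03), Rplp0 -1.46 (-1.38 to -1.37), Rps23 -0.028 (0.30 to 0.32) and Rps25 -1.32 (-1.01 to -0.98). On array 1 Rps27l read 0.77 (1.09 to 1.13). The median of the 78 genes was also far from the others on array 4, at -0.19 against 0.04 to 0.06.

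The difference between whole brain and the regions was itself called for 19 genes that were higher than the reference in whole brain and lower in all 4 regions. For 17 of them the differences are given here (log2, whole brain minus the mean of the regions): 3.97 for Rps4x, 3.56 for Rps12, 3.39 for Rpl11, 3.05 for Rplp1, 2.94 for Rpl39, 2.79 for Rps29, 2.22 for Rps28 and 2.02 for Rpl35a. They were 1.82 for Rpl37a, 1.76 for Rpl38, 1.75 for Rps20, 1.63 for Rpl41, 1.59 for Rpl13, 1.51 for Rps27l, 0.92 for Rpl36a, 0.79 for Rpl12 and 0.58 for Rps19. Whole brain and the scan batch cannot be told apart in these values. They also rest on the brightest probe of each gene. The dimmer probe of Rps20 averaged -0.70 in whole brain and -0.42 to 0.18 in the regions. The dimmest probe of Rpl13 averaged 0.67 and 0.89 to 1.24, and the dimmer probe of Rpl11 0.06 and 0.24 to 0.74. By these probes whole brain lay below every region mean. Other probes of Rpl35a, Rpl36a, Rps19 and Rps28, and another of Rpl13, lay above.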

How the results depend on the processing

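Counts are of ribosomal protein genes called. Of 21 counts, all were within 1.5 times of their main value with the brightest unsaturated probe, without the filter, and with the replicate block, as were all 17 that the 12 regional arrays alone could give. With median centring these moved: striatum against the reference 14 higher (7), olfactory bulb against the other regions 4 lower (8), cortex 0 higher (1) and 3 lower (8), striatum 66 higher (36), cerebellum 1 higher (4) and 47 lower (17), and whole brain against the regions 17 lower (27). With scaled arrays, olfactory bulb had 14 lower, cortex 2 higher and 15 lower, and cerebellum 10 higher and 8 lower. With the scanner's own ratio cortex had 4 lower and cerebellum 2 higher and 7 lower; this ratio put the median of all genes at 0.25 in whole brain, against 0.09 by loess. With the mean of probes cortex had 5 lower and striatum 0 lower, and with only probes well above background throughout, cortex had 2 higher. The causes were not tested. Among the named members, in the comparisons that named them, 7 values changed sign. Under median centring these were Rps27l in striatum against the reference (0.037), and Rpl21 (-0.04) and Rpl8 (-0.036) in cerebellum against the other regions. With the mean of probes they were Rpl29 in cortex (-0.41) and cerebellum (-0.43) and Rpl7a in cerebellum (-0.12), against the reference. With the unsaturated probe it was Rps18 in whole brain (0.46, main -1.79). Members outside that list changed sign too. In whole brain against the reference the mean of probes gave 0.61 for Rps7 (main -0.94) and 0.77 for Rpl23a (-0.405). It gave 0.21 for Rps2 (-0.99) and -0.85 for Rpl29 (0.22). Leaving out each array in turn gave these ranges. For whole brain against the reference, 29 to 34 higher and 34 to 37 lower. For olfactory bulb against the reference, 8 higher and 58 to 65 lower, cortex 5 to 7 and 58 to 61, striatum 6 to 8 and 42 to 50, cerebellum 3 to 6 and 56 to 61. Against the other regions, olfactory bulb 4 to 10 and 4 to 11, cortex 1 to 2 and 0 to 14, striatum 14 to 45 and 1, cerebellum 2 to 6 and 3 to 25. Cortex had 2 higher without the first whole-brain or second cerebellum array, and cerebellum 2 higher without any 1 of its arrays. For whole brain against the regions, 38 to 40 and 25 to 27, and among the regions 38 to 56. Replicate numbers were checked for pairing. Deviations of same-numbered samples correlated at -0.11 to 0.23 (30 pairs, median 0.04) and of others at -0.38 to 0.26 (72 pairs, median -0.01). With so few arrays per group these values cannot exclude that same-numbered samples share animals or preparation, which the labels do not state. With the replicate block striatum had 40 higher and 1 lower (36 and 1 without it). Slide as a block could not be fitted, since each array has its own slide. Dim signals limit few members, since 76 of 78 were well above background throughout.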
